A study of Mus musculus with 11 samples.

Results

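The hairy and enhancer of split genes *Hes1*, *Hes2*, *Hes3*, *Hes5*, *Hes6* and *Hes7* and their relatives *Hey1*, *Hey2* and *Heyl* were examined for H3K27me3, the histone mark laid down by the Polycomb machinery at silenced genes. These 9 genes were taken by name from 21755 protein-coding genes on chromosomes 1 to 19 and X. They encode basic helix-loop-helix repressors, and most of them are activated when a Notch receptor is cleaved and its intracellular part joins the DNA-binding protein RBPJ. In the embryonic forebrain, HES1 and HES5 keep apical progenitors dividing by repressing proneural genes, and neurogenesis proceeds as Notch signaling is lost. The comparison of interest set these progenitor genes *Hes1* and *Hes5* beside the other 7 genes.

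H3K27me3 was profiled by CUT&Tag, in which an antibody tethers a transposase that tags DNA near the modified nucleosomes. The samples came from wild-type C57BL/6J embryos, with 2 samples of medial ganglionic eminence (MGE) and 3 each of caudal ganglionic eminence (CGE), lateral ganglionic eminence (LGE) and cortex (CTX). MGE thus has replicate numbers 1 and 2, whereas in each other region 2 of the 3 samples share number 2, and the study describes 2 biological replicates of each region. The protocol in the labels names embryos of E12.5 and E14.5 without assigning an age to a sample, and the study describes this assay at E12.5. The same protocol also describes mixing nuclei of the regions in equal numbers, whereas each sample carries 1 region as its label, and the labels were followed here. Each region was represented by 1 list of broad peaks called on its merged samples, so differences between lists are described without a replicate error or a test. Each list averages over progenitors and neurons, so modification in fewer cells and less modification per cell cannot be told apart.

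The lists held between 15384 peaks (MGE) and 19196 peaks (CGE), covering 24.5 Mb to 32.9 Mb. As a check of the labels, the gene body with 10 kb either side was covered least in MGE for *Nkx2-1*, an MGE gene (42.7%, against 50.3% to 54.3% in the other lists), and least in CTX for *Emx1*, a cortical gene (14.7%, against 25.3% to 28.5%). The 2 kb upstream of *Nkx2-1* was nevertheless covered completely in MGE as well. That of *Emx1* was covered over 97.35% in CTX, against 97.85% in LGE and 100% in MGE and CGE. Upstream coverage thus hardly separated the lists for either gene. MGE was also the list with the fewest peaks and covered bases, so the *Nkx2-1* value is a weak check of its label.

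Promoter sequences from RefSeq (GRCm38.p6, 250 bases before to 50 after the gene start) were matched for 4 of the 9 genes, and they are shown because peaks lay on these windows. Capitals mark the letters TGGGAA or their reverse complement TTCCCA, the core of the site that RBPJ binds, which was found in 25.6% of the 32851 promoters in the table when both strands were searched.
*Hes5* (chr4:154960673-154960972, plus strand): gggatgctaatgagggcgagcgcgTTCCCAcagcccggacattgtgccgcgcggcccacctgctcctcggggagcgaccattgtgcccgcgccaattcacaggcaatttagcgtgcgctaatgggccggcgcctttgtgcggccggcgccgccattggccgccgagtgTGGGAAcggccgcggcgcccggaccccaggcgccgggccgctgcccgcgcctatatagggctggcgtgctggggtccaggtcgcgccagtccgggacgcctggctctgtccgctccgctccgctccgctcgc
*Hes7* (chr11:69120203-69120502, plus strand): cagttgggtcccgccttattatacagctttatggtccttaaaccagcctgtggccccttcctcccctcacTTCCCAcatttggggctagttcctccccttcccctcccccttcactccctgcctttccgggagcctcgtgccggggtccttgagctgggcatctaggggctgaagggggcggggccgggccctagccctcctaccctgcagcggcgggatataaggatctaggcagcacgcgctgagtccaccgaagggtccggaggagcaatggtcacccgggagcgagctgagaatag
*Hey2* (chr10:30842734-30843033, minus strand): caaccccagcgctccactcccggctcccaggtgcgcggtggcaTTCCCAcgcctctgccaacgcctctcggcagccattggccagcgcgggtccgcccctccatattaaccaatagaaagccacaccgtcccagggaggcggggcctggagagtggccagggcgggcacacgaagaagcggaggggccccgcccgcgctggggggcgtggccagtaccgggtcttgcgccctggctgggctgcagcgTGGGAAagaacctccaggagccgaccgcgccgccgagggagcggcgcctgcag
*Hes6* (chr1:91413989-91414288, minus strand): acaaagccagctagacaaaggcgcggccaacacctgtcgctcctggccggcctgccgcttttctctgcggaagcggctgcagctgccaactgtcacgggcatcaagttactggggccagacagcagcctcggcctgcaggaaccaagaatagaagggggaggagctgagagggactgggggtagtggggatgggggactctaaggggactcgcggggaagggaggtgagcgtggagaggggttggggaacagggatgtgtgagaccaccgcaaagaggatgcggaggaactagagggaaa

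The *Hes5* and *Hey2* windows each held 2 of these motifs and the *Hes7* window held 1. No match was found in this *Hes6* window or in that of its other start (chr1:91413173-91413472), which says only that these letters are not there. CpG dinucleotides, which are dense in CpG islands, numbered 41 in *Hes5*, 29 in *Hey2*, 14 in *Hes7* and 14 and 21 at the starts of *Hes6*, against a median of 7 over the table. The whole *Hes5* and *Hey2* windows lay under peaks in every list. Of the *Hes7* window, peaks took up 84.3% in MGE and 100% elsewhere. At the upstream *Hes6* start the window was uncovered in MGE and covered completely in the other lists, and at the downstream start it was covered completely in LGE and CTX and not at all in MGE and CGE. The N box CACNAG, a site described for HES proteins, was found in the *Hes7* window and at the downstream *Hes6* start, and in 42.5% of all promoters. The class C site CACGNG, to which HES and HEY proteins bind, had 2 matches in *Hes7*, where 1 match overlapped the N box, and 1 at the upstream *Hes6* start, and was found in 27.5% of all promoters.

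All 9 genes carried H3K27me3 peaks in every region as deposited. With a q-value under 0.001, *Hes6* lost its peaks in MGE and CTX and *Hey1* in LGE and CTX. *Hes6* also lost its CTX peak with lists of equal peak number, and *Hes6* and *Hey1* lost theirs in CTX with equal covered bases. Over the gene body and 10 kb either side, referred to here as the window, at least 1 base was covered for 9 of 9 genes in each list, against 43.3% of protein-coding genes (MGE), 46.0% (CGE), 44.7% (LGE) and 47.2% (CTX). A window covered in all 4 lists was found for 36.1% of protein-coding genes. The median share of the window under peaks over the 9 genes was 12.8% (MGE), 18.4% (CGE), 15.2% (LGE) and 14.5% (CTX), whereas the median over all protein-coding genes was 0% in each list. Among genes with any covered base the median was 3.27% (MGE), 4.46% (CGE), 3.58% (LGE) and 3.57% (CTX). At or above the 90th percentile of all genes were 7 of the 9 genes (MGE), 8 (CGE), 8 (LGE) and 6 (CTX).

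**Figure D1:**
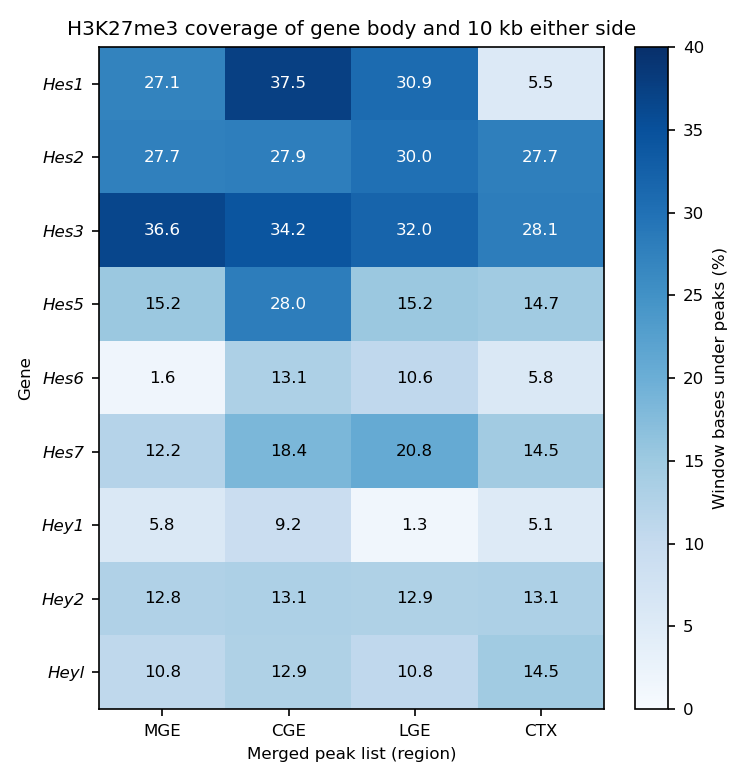
Share of the window (gene body and 10 kb either side) under H3K27me3 peaks, in percent, for each gene (rows) in the merged peak list of each region (columns), with darker blue for a larger share. *Hes1* goes from 27.1% to 37.5% in the eminences to 5.46% in CTX, whereas *Hey2* stays between 12.8% and 13.1%.

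**Figure D2:**
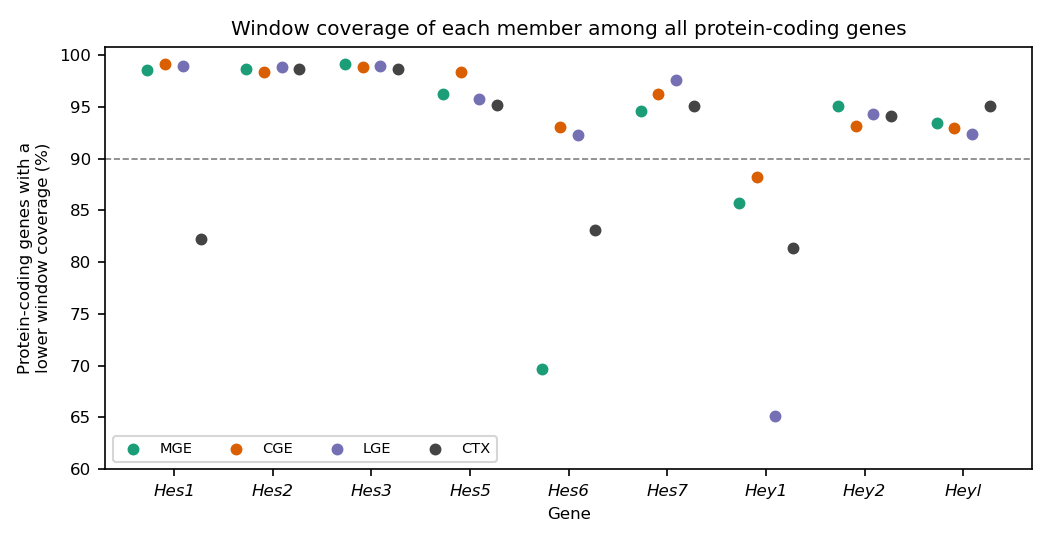
Percentage of the 21755 protein-coding genes with a lower window coverage than each gene (vertical axis, starting at 60%), with 1 point per gene and list and a dashed line at 90%. Points below the line belong to *Hes1* in CTX, *Hes6* in MGE and CTX and *Hey1* in all 4 lists.

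*Hes1*, the Notch effector expressed in progenitors throughout the neuraxis, showed the greatest contrast between the eminences and the cortex. The gene lies on chromosome 16 (30064384 to 30067796, plus strand, GRCm38), with no other protein-coding gene in its window of 23.4 kb. Peaks covered 6.33 kb of this window in MGE (27.1%), 8.77 kb in CGE (37.5%), 7.24 kb in LGE (30.9%) and 1.28 kb in CTX (5.46%). The 3 eminences were thus all high and the cortex was low, with 26.4 percentage points between the mean of the eminences and CTX. Only 5 other protein-coding genes showed a difference at least as large, namely *Zic5*, *Zic2*, *Dmrta2*, *Gm13279* and *Gm13275*, which were named after their values were seen. Counted in covered bases, which are not divided by the length of the window, the *Hes1* difference was 6.17 kb. It was reached by 48 genes, *Hes1* included, and a longer window can hold more covered bases. With lists of equal peak number, or of equal covered bases, the CTX value was 2.24% and those of the eminences did not change.

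The shape of the *Hes1* domain was the same in the 3 eminences. One peak lay upstream of the gene and another began inside it, and the gene start itself was free. In MGE the upstream peak ran from -4.09 kb to -1.75 kb relative to the gene start and the downstream peak from 1.72 kb to 5.71 kb. In CGE these peaks ran from -5.12 kb to -1.49 kb and from 1.58 kb to 6.73 kb, and in LGE from -4.89 kb to -1.69 kb and from 1.69 kb to 5.73 kb. The stretch without a peak around the gene start measured 3.47 kb in MGE, 3.07 kb in CGE and 3.38 kb in LGE. The downstream peak reached past the end of the gene and covered 75.9% of the coding bases in each of the 3 lists.

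In CTX the 2 *Hes1* peaks were short and weak. The upstream peak was 753 bases wide, from -2.08 kb to -1.33 kb, with a −log10 q (the significance given by the peak caller, larger for a stronger peak) of 1.59, and only 14.3% of the peaks of the CTX list were weaker. The other peak was 525 bases wide, lay beyond the end of the gene, and had a −log10 q of 3.37. No base of the gene body was covered in CTX, against 49.7% in MGE, 53.6% in CGE and 50.4% in LGE. The strongest *Hes1* peak was above 79.7% of its list in MGE, 81.6% in CGE and 74.3% in LGE, and above 45.7% in CTX. Of the bases covered in any list, 61.4% were covered in the 3 eminences and not in CTX, and 9.54% in all 4 lists. The fold enrichment over local background of the strongest peak did not separate the lists in the same order, with 2.57 (MGE), 2.28 (CGE), 2.47 (LGE) and 2.68 (CTX). The contrast was carried by the width and the q-value of the peaks. The 2 kb upstream of the gene start, taken alone, did not show it, with a coverage of 12.4% (MGE), 25.6% (CGE), 15.6% (LGE) and 33.7% (CTX).

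*Hes5*, which acts together with *Hes1* in progenitors, was modified in another manner. It lies on chromosome 4 (154960923 to 154962371, plus strand) and its window of 21.4 kb takes in part of *Pank4*. A peak lay on the gene start in every list and covered all coding bases of this short gene. The peak on the start ran from -1.56 kb to 1.30 kb (MGE), from -1.53 kb to 1.95 kb (CGE), from -1.25 kb to 0.847 kb (LGE) and from -1.78 kb to 0.846 kb (CTX). The 2 kb upstream was covered over 78.2% (MGE), 76.3% (CGE), 62.5% (LGE) and 88.9% (CTX), so that a covered start was common to the 4 regions. The peak was of moderate strength, with a −log10 q of 3.16 (MGE), 8.55 (CGE), 6.02 (LGE) and 6.15 (CTX), and between 47.7% (MGE) and 64.2% (CGE) of the peaks in the same list were weaker. Window coverage was 15.2% (MGE), 28.0% (CGE), 15.2% (LGE) and 14.7% (CTX). CGE was high and the other lists lay close together. The bases covered in CGE alone numbered 1824, partly in a peak of 2533 bases further upstream, from -8.18 kb to -5.65 kb, where the other lists held peaks of 399 to 742 bases. *Hes5* coverage was lower in CTX than in each eminence, but by far less than for *Hes1*, with a mean difference of 4.81 points that came mostly from CGE. The order depended on the flank. With 20 kb either side CTX (9.54%) was above MGE (7.88%) and LGE (7.87%), and with 5 kb CTX (22.9%) was above LGE (18.3%).

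**Figure D3:**
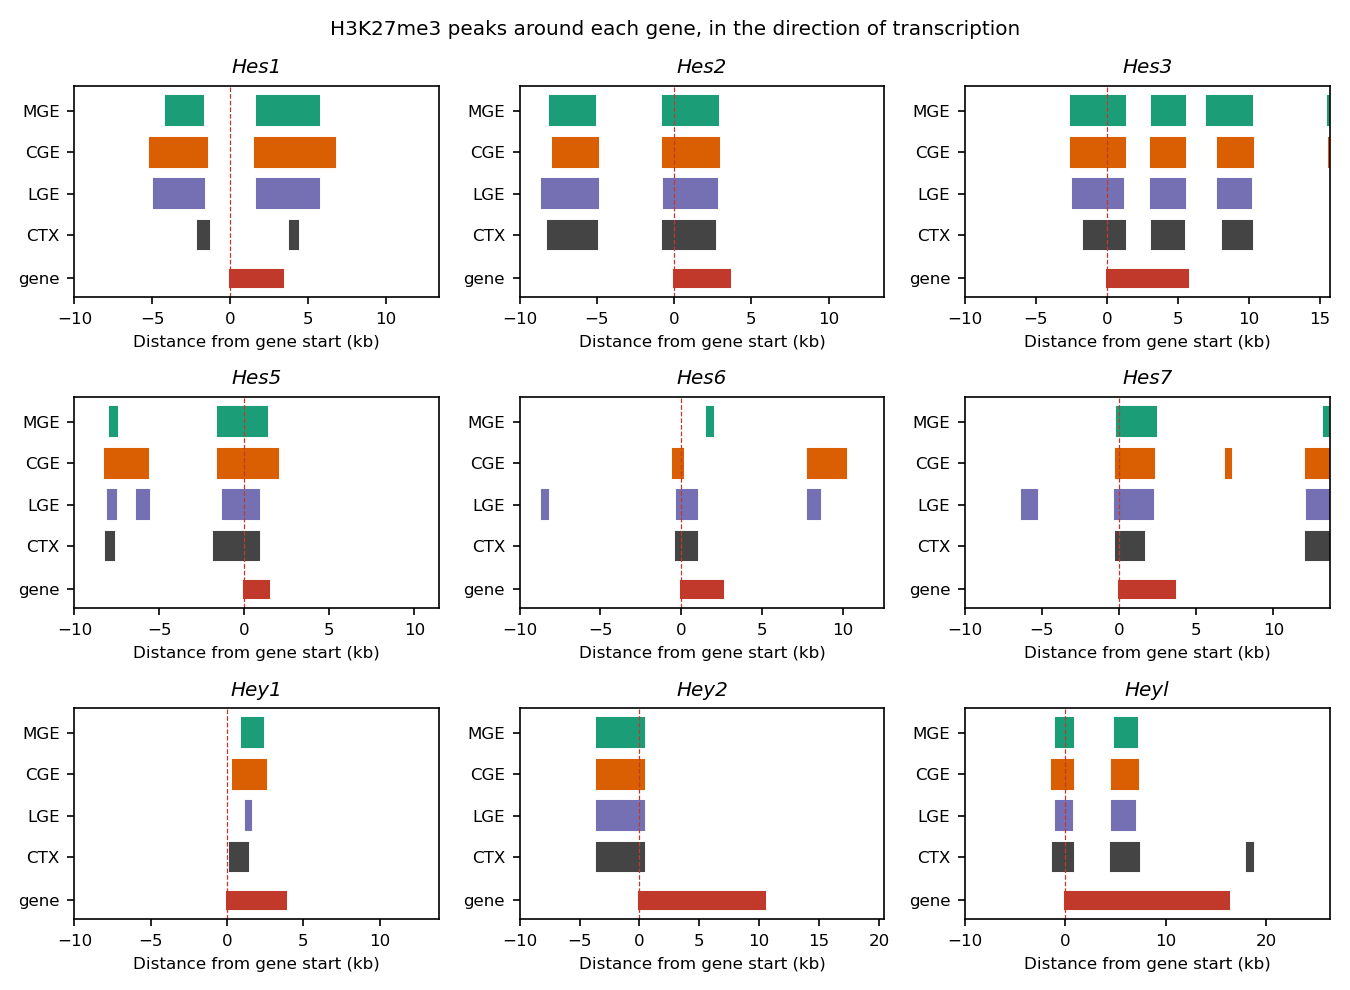
H3K27me3 peaks of the 4 lists (coloured bars, cut at the window's edges) around each gene, by distance from the gene start in kb in the direction of transcription, with the gene in red and its start as a dashed line. *Hes1* is bare around its start and nearly bare in CTX, whereas a peak lies on the start of *Hes2*, *Hes3*, *Hes5*, *Hes7*, *Hey2* and *Heyl* in all 4 lists.

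Set against the other 7 genes, *Hes1* and *Hes5* had a mean window coverage of 21.1% against 15.3% in MGE, 32.7% against 18.4% in CGE and 23.1% against 16.9% in LGE. In CTX the order was the opposite, with 10.1% against 15.5%. The differences were thus 5.80, 14.3 and 6.15 percentage points in the eminences and -5.48 points in CTX. With 20 kb either side they were 0.671 points in MGE, 6.52 in CGE and 0.978 in LGE, and without *Hes2* and *Hes3*, left out after their values were seen, 12.5 points in MGE, 11.8 in LGE and -0.539 in CTX. *Hes1* carried most of them. Taken alone, a comparison added after the values were seen, *Hes1* differed from the mean of the other 7 by 11.7 points (MGE), 19.1 (CGE), 14.0 (LGE) and -10.1 (CTX), whereas *Hes5* differed by -0.111, 9.63, -1.72 and -0.872 points. Within 2 kb either side of the gene start the progenitor genes were not the more covered pair, and the difference was -6.15 points (MGE), 1.83 (CGE), -14.8 (LGE) and -10.4 (CTX). *Hes1* was thus covered beside its start, mainly in the eminences, and *Hes5* on its start in all 4 lists.

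*Hes3*, which is expressed in the early neuroepithelium, and *Hes2* lie 133 kb apart on chromosome 4 and were well covered in every list. *Hes2* (152158867 to 152162469, plus strand) was covered over 27.7% of its window (MGE), 27.9% (CGE), 30.0% (LGE) and 27.7% (CTX). All lists were alike here, and 82.6% of the bases covered in any list were covered in all 4. Its peak over the gene start was among the strongest of each list, above 99.3% of the peaks (MGE), 99.3% (CGE), 99.4% (LGE) and 99.7% (CTX), and it covered all coding bases. A further peak around 5 kb to 8 kb upstream lay on the neighbouring gene *Espn* and cannot be assigned to *Hes2* alone. *Hes3* (152285972 to 152291662, minus strand) had a window coverage of 36.6% (MGE), 34.2% (CGE), 32.0% (LGE) and 28.1% (CTX). CTX was lowest and MGE highest, and the upstream 2 kb was covered completely in the eminences and over 81.6% in CTX. The peaks downstream of *Hes3* lay on *Gpr153*, and its window also takes in part of *Icmt*. Without *Hes3* the differences between *Hes1* and *Hes5* and the remaining genes were 9.34 points in MGE and -3.39 points in CTX.

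*Hes6* encodes a family member that inhibits HES1 and promotes neuronal differentiation, and its strongest peak had the lowest −log10 q among the Hes genes in each list. It lies on chromosome 1 (91411483 to 91414038, minus strand), next to *Per2*. Coverage was 1.60% (MGE), 13.1% (CGE), 10.6% (LGE) and 5.77% (CTX), which ordered CGE and LGE above CTX and MGE. No base was covered in all 4 lists. In MGE a single peak of 362 bases lay inside the gene, with a −log10 q of 1.31, and only 4.11% of the list's peaks were weaker. In CGE, LGE and CTX a peak lay on the gene start, with a −log10 q of 2.04, 1.48 and 1.42. The broadest peak of the window, 2358 bases in CGE, lay 7.85 kb to 10.2 kb downstream of the gene start and 749 bases of LGE peak lay there too.

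*Hes7*, the oscillating repressor of the segmentation clock in the presomitic mesoderm, carried a peak that began just upstream of its start in every list. It lies on chromosome 11 (69120404 to 69124055, plus strand). The peak also lay on *9130213A22Rik* in every list, so it cannot be assigned to either gene alone. The peak reached 2.37 kb past the start (MGE), 2.27 kb (CGE), 2.18 kb (LGE) and 1.64 kb (CTX). It had a −log10 q of 23.6, 50.2, 23.8 and 16.8 in this order, and a fold enrichment of 3.62, 3.63, 3.51 and 3.70. Window coverage was 12.2% (MGE), 18.4% (CGE), 20.8% (LGE) and 14.5% (CTX), with part of it on *Aloxe3* downstream and, in LGE, in a further peak upstream. CTX lay within the range of the eminences.

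The Hey genes, best known from the developing heart and vessels, differed from each other. *Hey2* (chromosome 10, 30832359 to 30842801, minus strand) carried 1 peak with nearly identical borders in every list, beginning between -3.57 kb and -3.53 kb and ending between 0.351 kb and 0.414 kb. Its 2 kb upstream was covered over 100% in all lists, and 97.4% of the bases covered in any list were covered in all 4. Window coverage ranged over 0.342 points only, the least of the 9 genes, although the rank of the peak within its list was lower in CTX (83.6% of peaks weaker) than in MGE (92.8%), CGE (96.8%) and LGE (96.9%).

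*Heyl* (chromosome 4, 123233556 to 123249875, plus strand) held a peak on its start and another inside the gene. Window coverage was 10.8% (MGE), 12.9% (CGE), 10.8% (LGE) and 14.5% (CTX), and it was the only one of the 9 genes covered more in CTX than in each eminence, by a mean of 3.04 points. Part of the CTX coverage came from a further peak of 549 bases downstream of the gene, with a −log10 q of 2.57. With a q-value under 0.001, coverage in CTX was 13.0%, close to the 12.9% of CGE. The 2 kb upstream was covered over 46.2% (MGE), 64.5% (CGE), 46.5% (LGE) and 59.2% (CTX).

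*Hey1* (chromosome 3, 8663359 to 8667256, minus strand), which is also expressed in neural progenitors, was free of peaks throughout the 2 kb before its start in all 4 lists. Its peak lay inside the gene and began 0.994 kb after the start (MGE), 0.384 kb (CGE), 1.27 kb (LGE) and 0.180 kb (CTX). Coverage of the window was 5.80% (MGE), 9.19% (CGE), 1.31% (LGE) and 5.13% (CTX). CGE was highest, where the peak was above 74.7% of the list, and LGE lowest, where it was 314 bases wide and, like that of CTX, was lost with a q-value under 0.001. No peak lay within 22.1 kb upstream of the *Hey1* start in any list, the nearest being that of CGE.

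**Figure D4:**
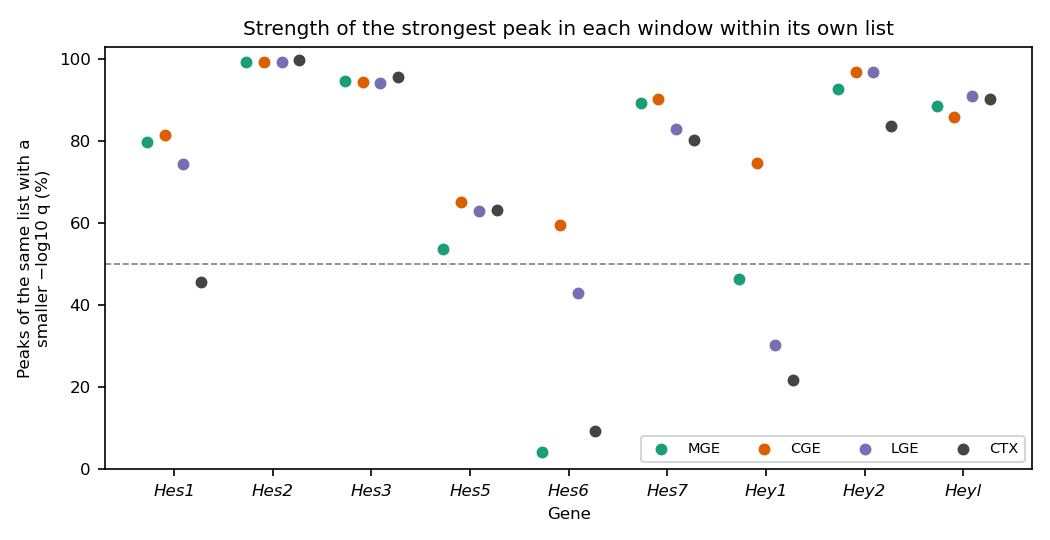
Percentage of the peaks in the same list that have a smaller −log10 q than the strongest peak in each gene's window (vertical axis), with 1 point per gene and list and a dashed line at 50%. *Hes2* lies above 99% in all lists, *Hes6* in MGE and CTX lies under 10%, and the *Hes1* point of CTX lies apart from those of the eminences.

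Gene starts were then compared in a fixed window. A promoter was called marked when at least 50% of its 2 kb upstream was covered. Marked promoters numbered 3 of 9 (MGE), 4 (CGE), 3 (LGE) and 4 (CTX), against 6.47%, 8.33%, 6.52% and 7.14% of all protein-coding genes. *Hes3*, *Hes5* and *Hey2* were marked in all 4 lists, as were 4.72% of all genes. *Heyl* made the difference between lists, since it lay just below 50% in MGE and LGE and above it in CGE and CTX. *Hes2* stayed below, with 33.6% to 37.6%. With 2 kb either side of the start, at least 50% was covered for 5 of 9 genes (MGE), 6 (CGE), 5 (LGE) and 4 (CTX), against 9.76%, 12.3%, 10.2% and 10.9% of all genes. The gene start itself was covered in all 4 lists for 6 of 9 genes, against 14.5% of all genes. *Hes1* and *Hey1* were the genes whose start was not covered in any list.

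Across regions, window coverage was lower in CTX than in each eminence for 3 of 9 genes (*Hes1*, *Hes3* and *Hes5*), against 9.59% of all genes. For *Hes5* this did not hold with 5 kb or 20 kb either side. For *Hes3* it did not hold over the gene body alone, with 62.8% in CTX against 62.6% (MGE), 64.8% (CGE) and 61.3% (LGE). Window coverage was higher in CTX for 1 of 9 (*Heyl*), against 16.8%. It was highest in CGE for 5 of 9 genes (*Hes1*, *Hes5*, *Hes6*, *Hey1* and *Hey2*), against 23.7% of all genes. CGE was also the list with the most peaks and covered bases, and the paper gives its deeper replicate the greatest sequencing depth. Whether depth raised the CGE count was not tested. For *Hey2* the first place of CGE rested on 3989 covered bases in CGE against 3987 in CTX. Genes with no covered base in any list count in these shares but cannot be highest or lowest. Shares over covered genes alone were not computed, so the shares given are a low yardstick for genes covered in every list. The genes with the most similar window coverage over the 4 lists were *Nfix*, *Cldn9* and *Hcfc1r1* for *Hes1*, at a Euclidean distance of 10.5 to 10.8 percentage points, and *Foxp4*, *Ccdc184* and *Rnf224* for *Hes5*, at 3.13 to 5.06 points. The 3 genes nearest to *Hes1* had 11.9% to 13.9% of their window covered in CTX, more than *Hes1*. Of the 54100 bases covered in any list over the 9 windows, 48.1% were covered in all 4 lists.

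Ligands, receptors, processing factors and partners of the Notch pathway, together with 7 related helix-loop-helix genes, were counted in the same way. At least 1 base of the window was covered for 27 of these 36 genes (MGE), 29 (CGE), 30 (LGE) and 24 (CTX), and 7, 6, 6 and 6 promoters were marked. Over all protein-coding genes, 43.3%, 46.0%, 44.7% and 47.2% of windows were covered and 6.47%, 8.33%, 6.52% and 7.14% of promoters marked in these lists. The median window coverage of the 36 genes was 4.67% (MGE), 6.36% (CGE), 4.37% (LGE) and 2.08% (CTX), against 0% over all genes in each list. The 7 related genes were all covered in every list, with medians of 15.6% to 18.3%. The 16 genes for processing and nuclear function had medians of 0% to 0.508%. Among the ligands, *Dll4* and *Jag2* were marked in all lists, with 100% of the upstream 2 kb covered for *Dll4* and 63.4% to 93.2% for *Jag2*. *Dll1*, the ligand of differentiating neuronal progenitors, was covered upstream over at most 9.85%, and *Jag1* was covered there only in CGE (42.8%). With 2 kb either side of the start, *Dll1* was covered over 18.6% (MGE), 9.8% (CGE), 48.9% (LGE) and 54.95% (CTX). In the same span *Jag1* was covered over 37.9% (MGE), 71.4% (CGE), 37.5% (LGE) and 37.4% (CTX). No promoter of the 4 receptors was marked, and the upstream 2 kb of *Notch1* had no covered base. Of 16 genes for processing and nuclear function, *Lfng*, which modifies the receptor with sugars, was marked, at 65.5% to 70.4%, and *Rbpj* had no covered base upstream. Of the 4 Groucho corepressors, which HES proteins recruit, *Tle2* and *Tle4* were marked in all lists. Of the 7 related helix-loop-helix genes, *Bhlhe41* was marked in all lists and *Bhlhe40* in MGE alone, with 100% upstream coverage there, 12.9% in CGE, 0% in LGE and 15.2% in CTX.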

How the data were processed

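CUT&Tag reads were aligned by the authors to GRCm38 (mm10) with Bowtie2, cleared of blacklisted regions and PCR duplicates (Picard), merged over the replicates of a region with samtools, and broad peaks were called with MACS. Which version and control the peak caller used is not given in the sources used here. The deposited lists hold a position, a score (not used), a fold enrichment (a ratio to local background), a −log10 p-value (not used) and a −log10 q-value for each peak, which are the authors' values. No list carries read counts, so the reads behind a single peak are unknown and no counting interval was given. The paper does state a sequencing depth for each replicate, and these depths were unequal. Judged by its deeper replicate, CGE was sequenced most deeply, followed by CTX, LGE and MGE. The lists fall in the same order by number of peaks and by covered bases. Coverage and −log10 q were not adjusted for depth, and an effect of depth on the differences between lists was not tested. Unequal depth of the merged lists can alter the number and width of peaks.

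Peaks on chromosomes 1 to 19 and X were used, which left out 11 on the mitochondrial genome. Gene positions came from GENCODE M21 (GRCm38), counted from 1. Coverage was the share of bases under peaks in the gene body and 10 kb either side, in the 2 kb upstream and in 2 kb either side of the gene start, computed with Python 3.11.15 and NumPy 2.4.6 and tested on simulated intervals. No test between regions was made, since each region has 1 merged list. The text names all 9 genes, coding neighbours in their windows, pathway genes marked in a list with *Notch1*, *Dll1*, *Jag1* and *Rbpj*, and the 3 genes nearest to *Hes1* and to *Hes5*. The genes and lists were chosen with earlier results of these data known. Alternatives changed the q-value, joining of peaks, list length, flank and promoter definition. One planned check of the region labels is not reported here.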

Additional observations from a re-analysis of the deposited data

How the results depend on the processing

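No paired analysis was possible because the samples of a region were merged before peaks were called, and for the same reason no replicate could be left out. Values with no test were taken as moved when they changed by more than 1.5 times. With a q-value under 0.001, peaks under 3 kb apart joined, equal numbers of strongest peaks, or equal covered bases, 126 of 144 window coverages of single genes stayed within 1.5 times and 18 moved. *Hes1* in CTX fell from 5.46% to 2.24% under 3 of these settings, while its coverage in the eminences did not change under any of the 4. Each list had a peak for at least 7 of 9 genes under every setting tried, and the counts of marked promoters did not change under these 4. The gene start definitions moved the counts of marked promoters: with any 1 covered base there were 7 (MGE), 8 (CGE), 8 (LGE) and 8 (CTX); with 2 kb either side, 5 in MGE and 5 in LGE; with the start of any annotated transcript, 5 in MGE and 6 in LGE.

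The mean difference between *Hes1* and *Hes5* and the other 7 genes depended on the window. In MGE it was 30.1 points over the gene body alone, 14.6 with 5 kb and 0.671 with 20 kb either side, 3.85 with peaks joined, 8.96 against the median of the others, 9.34 without *Hes3* and 12.5 without *Hes2* and *Hes3*. In CGE it was 35.2, 24.4 and 6.52 points for the same windows. In LGE it was 16.7, 15.8 and 0.978 points, 10.1 against the median and 11.8 without *Hes2* and *Hes3*. In CTX it was -9.95 points over the gene body, -3.39 without *Hes3* and -0.539 without *Hes2* and *Hes3*. Within 2 kb either side of the start it was -6.15 (MGE), 1.83 (CGE), -14.8 (LGE) and -10.4 (CTX), so that the sign reversed in MGE and LGE. For *Hes1* alone it was 11.7 in MGE, 14.0 in LGE and -10.1 in CTX, and for *Hes5* alone -0.111 in MGE and -1.72 in LGE, which reversed the sign, and -0.872 in CTX. The alternatives with *Hes2* and *Hes3* left out and with *Hes1* or *Hes5* alone were added after the data were seen. The median coverage of the 9 genes moved with the flank, to 49.7% (MGE), 56.4% (CGE), 50.4% (LGE) and 36.8% (CTX) over the gene body alone and to 7.88% in MGE, 7.87% in LGE and 8.79% in CTX with 20 kb. The cause of these changes was not tested beyond the windows' own construction.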
